A study of Mus musculus with 8 samples.

Results

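The genes described here encode the protein part of the mitochondrial ribosome, compared between HM-1 and R1, which are mouse embryonic stem (ES) cell lines. They were taken as every gene on the array whose annotated symbol starts with Mrpl or Mrps and a digit. That gave 64 genes on 79 probes. Of these, 56 genes had values on at least 3 arrays of each condition and were tested, among 14015 tested features of which 8726 carried a gene symbol. The 56 comprised 33 Mrpl genes and 23 Mrps genes, with values on all 8 arrays for 47, on 7 arrays for 7 and on 6 arrays for 2. The other 8, Mrpl15, Mrpl18, Mrpl36, Mrpl42, Mrpl45, Mrpl57, Mrpl58 and Mrps7, had too few values to be tested.

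Every array was a cDNA array in 2 colours that carried HM-1 and R1 together. On 4 arrays both lines had been treated with nocodazole, which takes microtubules apart and stops dividing cells in mitosis, and on 4 arrays both were untreated. The labels give neither its dose nor its duration, nor the genotypes of the lines. R1 is a line widely used for gene targeting, and HM-1 is known to lack Hprt, an enzyme of purine salvage. HM-1 was labelled with Cy5 on nocodazole replicates 1, 2 and 3 and on untreated replicates 1 and 2, and with Cy3 on nocodazole replicate 4 and untreated replicates 3 and 4. Each value is a log2 ratio between the lines, centred on the median of its array, and says nothing about the level of a gene. Neither the numerator nor a possible turning of the arrays with HM-1 in Cy3 is settled by the labels. Signs below are therefore those of the deposited table, no line is called higher, and each comparison of the members is also given with the 3 arrays labelled HM-1 in Cy3 turned (multiplied by -1). Treated and untreated cells of 1 line never shared an array, so a difference between the conditions is a change of the line ratio. The RNA came from whole cultures, in which fewer cells of a kind and less RNA per cell cannot be told apart. Whether replicates were separate cultures is not stated, so a p-value here reflects the spread of these arrays alone, and that spread may be technical.

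Mitochondrial ribosomes translate the messenger RNAs of mitochondrial DNA, which encode core subunits of the oxidative phosphorylation complexes. Their ribosomal RNA is transcribed in the mitochondrion, while their proteins are encoded in the nucleus, made on cytosolic ribosomes and imported. Mrpl genes encode proteins of the large subunit, which joins amino acids, and Mrps genes proteins of the small subunit, which decodes the message, although the products of Mrps18a and Mrps30 sit in the large subunit. Mrps36 is now known to encode a component of the 2-oxoglutarate dehydrogenase complex. By these assignments the tested genes comprised 35 of the large subunit, 20 of the small subunit and Mrps36. Leaving out Mrps36, 36 have a counterpart in bacterial ribosomes and 19 are found in mitochondria only.

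The arrays held between 17928 and 19445 values each. Nocodazole replicate 3 had the widest log2 ratios, with an SD of 1.284 against 0.784 to 0.909 on the other 7 arrays, and limma's array weights also placed it lowest, at 0.4439. Of 10 ES cell markers, 5 were tested, and a ratio cannot show whether both lines expressed them. Their median was -0.038 with nocodazole and 0.134 untreated, and -0.035 and 0.14 with the Cy3 arrays turned. Their fitted change, nocodazole minus untreated, had a median of -0.171, with 2 positive and 3 negative, and ran from -1.08 to 1.83. Esrrb, a transcription factor of pluripotency, stood at 2.21, 2.86 and 1.01 on nocodazole replicates 2 to 4 and at 0.26, 0.15, -0.14 and -0.008 on the untreated arrays (fitted change 1.83 ± 0.33 (SE), adjusted p = 0.996 in limma). Of 10 feeder fibroblast markers, 8 were negative with nocodazole and 8 were negative untreated, and of 7 endoderm markers 5 were negative with nocodazole and 4 untreated. With the Cy3 arrays turned, 4 and 3 of the feeder markers and 3 and 4 of the endoderm markers were negative, in the same order. Their part in the ratios of the mitoribosomal genes was not tested.

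The promoters of the members often held letters bound by known regulators of mitochondrial genes. ETS family factors (GABPA among them), NRF1 and YY1 are known to bind promoters of nuclear genes for mitochondrial proteins. RefSeq (GRCm38.p6) gave a promoter of 250 bases before and 50 bases after the start for 50 of the 56 tested members. Searched on both strands, CCGGAA, the core letters of an ETS site, stood in 28 of the 50 (56%), against 16.7% of 27025 genes and 20.9% of 17492 protein-coding genes. GCGC and TGCGC parted by 1 base, letters of an NRF1 site, stood in 9 members (18.0%), against 5.19% of genes, and AAGATGGC, letters of a YY1 site, in 8 (16%), against 3.19%. Over protein-coding genes the shares were 7.17% for the NRF1 letters and 3.57% for the YY1 letters. Together 37 of the 50 members held at least 1 of the ETS, NRF1 and YY1 letters. TATAAA stood in 5 members (10%) and 15.7% of genes, and CCAAT in 19 members (38.0%) and 41.1% of genes. Over all 32851 promoters of the same length the shares were 14.9%, 4.6%, 2.75%, 13.6% and 37.4% in the same order. None of these motifs contains another. These are matches of letters, and no binding was measured here.

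The 120 bases before the start are printed for 4 members whose ratios are described below. Mrpl10 and Mrpl12 encode the stalk of the large subunit, to which translation factors are recruited, Mrpl33 a small large-subunit protein and Mrps21 a small-subunit protein, all with bacterial counterparts. Capitals mark the ETS or NRF1 letters on either strand.
Mrpl10 (chr11:97041462-97041581, + strand): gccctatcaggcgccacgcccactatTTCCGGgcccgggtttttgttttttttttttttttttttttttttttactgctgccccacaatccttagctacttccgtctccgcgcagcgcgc
Mrpl33 (chr5:31613831-31613950, + strand): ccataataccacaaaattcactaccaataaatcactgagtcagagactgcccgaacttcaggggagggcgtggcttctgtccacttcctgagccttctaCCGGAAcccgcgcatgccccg
Mrpl12 (chr11:120484517-120484636, + strand): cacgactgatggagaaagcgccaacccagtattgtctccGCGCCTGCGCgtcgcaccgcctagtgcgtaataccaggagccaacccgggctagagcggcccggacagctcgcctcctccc
Mrps21 (chr3:95871515-95871634, - strand): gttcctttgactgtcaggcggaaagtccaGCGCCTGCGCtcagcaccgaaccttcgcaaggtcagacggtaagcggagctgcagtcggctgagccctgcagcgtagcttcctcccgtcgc

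Across the arrays the mitoribosomal genes lay close to the array medians. The median over the tested members was 0.117, 0.013, 0.014 and -0.082 on nocodazole replicates 1 to 4, and 0.021, -0.019, -0.123 and -0.120 on untreated replicates 1 to 4. Members were positive in 75%, 50.0%, 51.9% and 35.7% of cases on the nocodazole arrays and in 53.7%, 45.5%, 34.0% and 41.8% on the untreated arrays. The 3 arrays with HM-1 in Cy3 had the 3 lowest medians, whereas the conditions overlapped. Over all features the same 3 arrays were also lowest. Their medians were -0.013 on nocodazole replicate 4 and -0.011 and -0.007 on untreated replicates 3 and 4, against -0.001 to 0.023 on the others. Single members reached far beyond these medians, down to -4.73 for Mrpl54 on nocodazole replicate 3 and up to 2.94 for Mrps17 on nocodazole replicate 1.

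**Figure D1:**
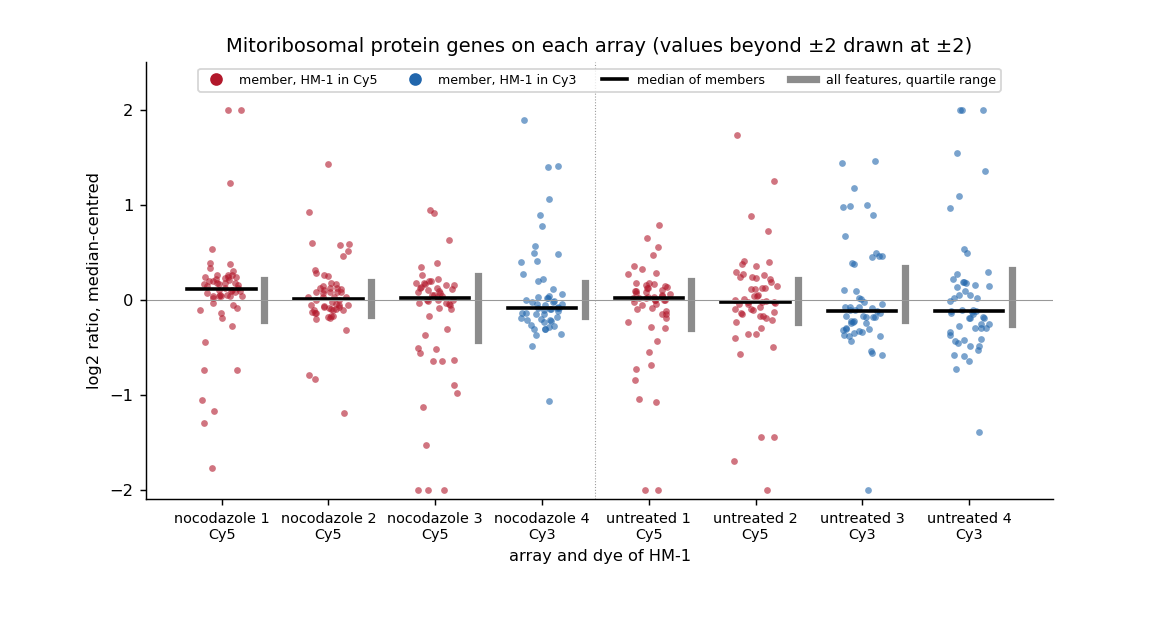
Log2 ratio of each tested mitoribosomal gene (points) on the 4 nocodazole and 4 untreated arrays, with the dye of HM-1 under each array; black lines are medians of the members and grey bars the quartile range of all tested features. The medians lie between -0.123 and 0.117, and the lowest 3 belong to the arrays with HM-1 in Cy3.

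The spread between arrays differed between members. The residual SD after the fit had a median of 0.252 over the 56 members and of 0.402 over all features. It was lowest for Mrps34, a small-subunit protein found in mitochondria only, at 0.0718, and highest for Mrpl54, a large-subunit protein of the same kind, at 2.19. Mrps34 stood at 0.037, 0.030, 0.13 and -0.085 on the nocodazole arrays and 0.10, -0.080, -0.18 and -0.11 on the untreated arrays, so that all 8 values lay between -0.18 and 0.13. Mrpl54 stood at -0.74, 0.12, -4.73 and -0.31 on the nocodazole arrays and 0.27, -2.24 and 0.27 on the untreated arrays, without a value on untreated replicate 1. Values were also matched to quotients of integers no larger than 10, called whole-number ratios here (tolerance 0.0015 in log2). The matching allowed for an offset of each array, between -0.242 and 0.377. Such ratios made up 6.54% of the values in the 28 members of smaller spread. The shares were 17.6% in the 28 of larger spread and 14.6% over all probes. Very dim spots can give such ratios, but no brightness was available and the rate of accidental matches was not estimated. A link between these ratios and the spread was not tested.

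**Figure D2:**
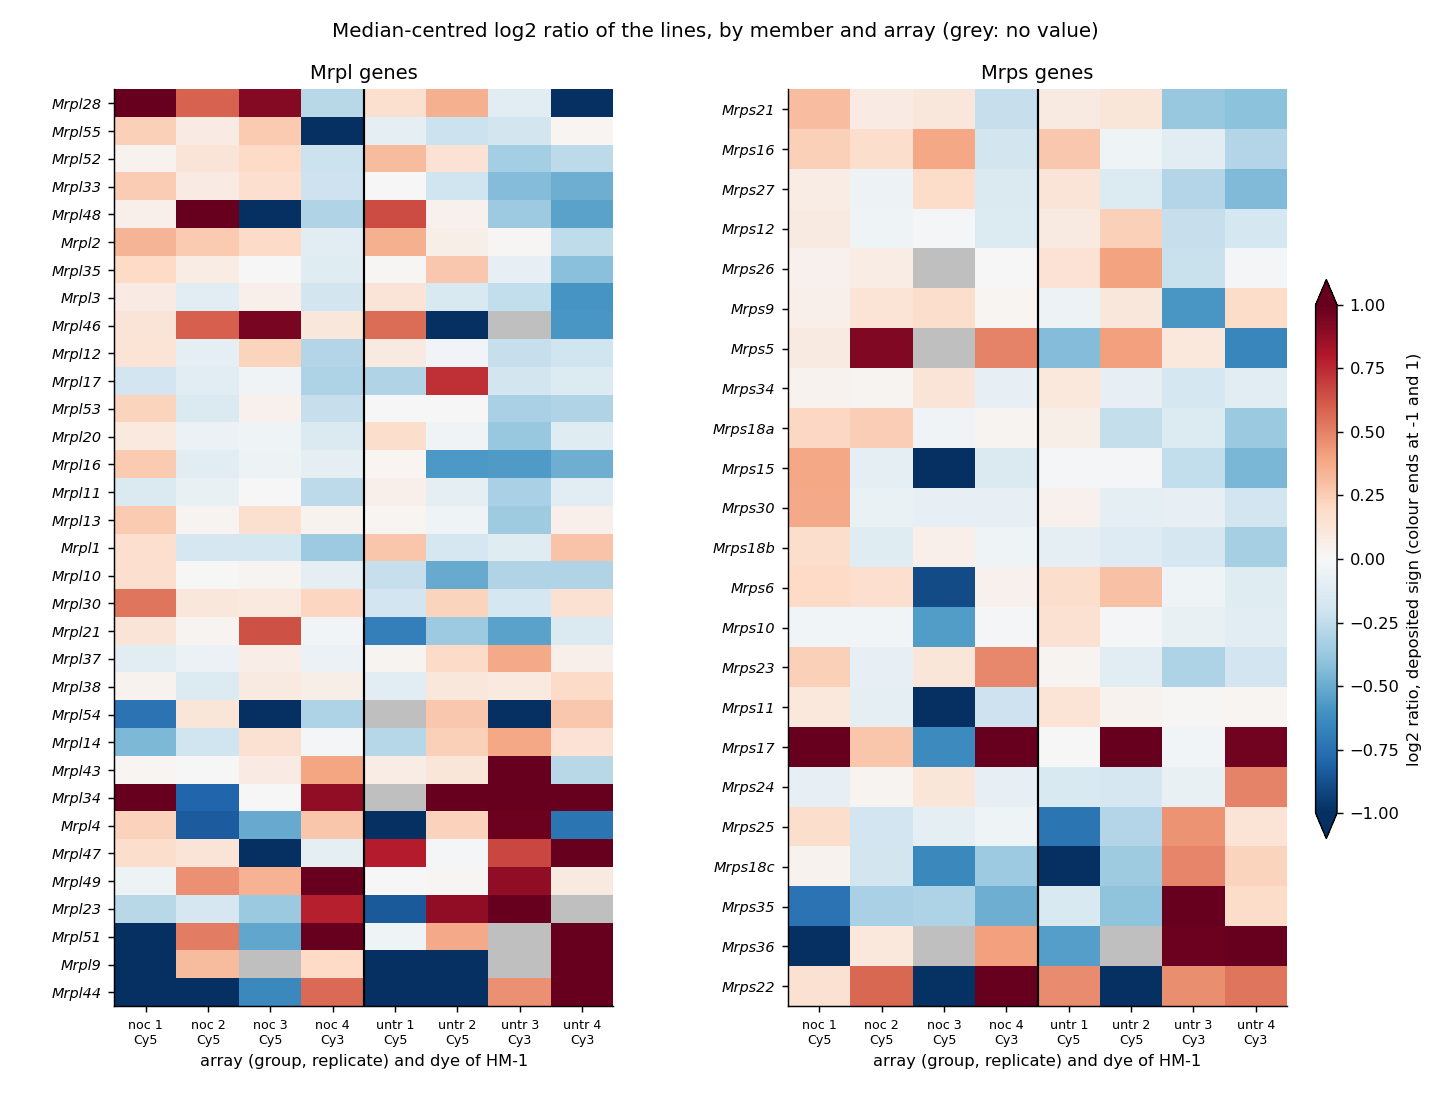
Log2 ratio of the 56 tested members (rows, ordered by the difference between the dye labels, highest at the top) on the 8 arrays, nocodazole left and untreated right of the black line. Colour runs from blue (-1 or lower) to red (1 or higher) and grey marks a missing value; most rows are pale, and rows at the top and bottom change colour between the Cy5 and Cy3 columns.

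With nocodazole, the ratio between the lines was small for most mitoribosomal genes. The fitted ratio stands for balanced dyes, and with nocodazole it leans on 1 Cy3 array and the dye term shared with the untreated arrays. It had a median of -0.016 over the members and -0.006 over all features. Of the 56 members, 25 were positive and 31 negative, and 43 lay within 0.3 of 0. No member and no feature passed an adjusted p of 0.05 in limma (0 of 14015 features, 0%; smallest adjusted p = 0.0638 over all features and 0.999 over the members). At an unadjusted p under 0.05, 1 member was positive, Mrpl49, and 0 were negative, against 1.79% and 1.1% of all features. With the arrays labelled HM-1 in Cy3 turned, the median over the members was 0.049, 33 members were positive and 4 had an unadjusted p under 0.05. Without nocodazole replicate 2 the median was 0.004.

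Mrpl49, a large-subunit protein without a bacterial counterpart, stood at -0.052, 0.46, 0.35 and 1.06 on the nocodazole arrays and -0.007, 0.011, 0.89 and 0.090 on the untreated arrays. The highest value of each condition came from an array with HM-1 in Cy3, and the conditions overlapped. The fitted ratio was 0.61 ± 0.17 (SE) with nocodazole (adjusted p = 0.999 in limma). It rests on an average of 2 probes. One probe had values on nocodazole replicate 4 and untreated replicates 3 and 4 only, at 1.86, 2.02 and 0.66, where the other probe stood at 0.27, -0.24 and -0.48. With the other probe alone the fitted ratio with nocodazole was 0.21, and with the Cy3 arrays turned it was -0.29.

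Of the other members of smallest p with nocodazole, none reached 0.05. Mrpl30, with a bacterial counterpart, stood at 0.54, 0.11, 0.10 and 0.22 on the nocodazole arrays and -0.20, 0.22, -0.17 and 0.15 on the untreated arrays, positive on every nocodazole array and of mixed sign untreated (adjusted p = 0.999 in limma). Mrps5, whose bacterial counterpart lies near the entry of the messenger RNA, stood at 0.093, 0.93 and 0.50 on the nocodazole arrays and -0.43, 0.41, 0.10 and -0.65 on the untreated arrays, with no value on nocodazole replicate 3 (adjusted p = 0.999 in limma). The groups of both genes overlapped. Mrpl11, which forms the base of the stalk in the large subunit, stood at -0.14, -0.076, 0.002 and -0.27 on the nocodazole arrays and 0.053, -0.094, -0.32 and -0.11 on the untreated arrays (adjusted p = 0.999 in limma), close to 0 in both conditions. Mrps22, a small-subunit protein found in mitochondria only, in which human mutations cause mitochondrial disease, stood at 0.15, 0.57, -0.99 and 1.89 on the nocodazole arrays and 0.47, -1.70, 0.46 and 0.53 on the untreated arrays (adjusted p = 0.999 in limma). Its values ran from below -1 to above 1 across the arrays.

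In untreated cells, the ratio was again small for most mitoribosomal genes. The fitted ratio had a median of -0.074 over the members and -0.005 over all features, with 20 members positive, 36 negative and 43 within 0.3 of 0. By subunit the medians were -0.082 over the large-subunit genes and -0.063 over the small-subunit genes. With the Cy3 arrays turned these 2 medians were 0.011 and 0.091. No member passed an adjusted p of 0.05 in limma (0% of all features did; smallest adjusted p = 0.422 over all features and 0.704 over the members). At an unadjusted p under 0.05, 2 members were positive, Mrpl34 and Mrpl51, and 4 were negative, Mrpl10, Mrpl16, Mrpl21 and Mrpl33, against 3.27% and 3.07% of all features. Without untreated replicate 2 this count of 6 became 1, and without untreated replicate 3 the median was -0.037. With the arrays labelled HM-1 in Cy3 turned, the median was 0.074, 33 members were positive and 7 had an unadjusted p under 0.05.

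Mrpl33 stood at 0.26, 0.084, 0.17 and -0.21 on the nocodazole arrays and -0.007, -0.20, -0.44 and -0.49 on the untreated arrays. All 4 untreated values were at or below 0, and within each condition the values with HM-1 in Cy3 were the lowest. Its fitted ratio untreated was -0.28 ± 0.084 (SE) (adjusted p = 0.758 in limma), but 0.18 with the Cy3 arrays turned. Mrpl16, which in bacteria lies close to the site where amino acids are joined, stood at 0.26, -0.10, -0.053 and -0.10 on the nocodazole arrays and 0.020, -0.57, -0.56 and -0.49 on the untreated arrays. Replicate 1 was the highest in each condition and the other untreated arrays lay below all nocodazole arrays. Its fitted ratio untreated was -0.40 ± 0.13 (SE) (adjusted p = 0.758 in limma), and 0.13 with the Cy3 arrays turned.

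Both positive members rested on few or divergent values. Mrpl34, with a bacterial counterpart, stood at 1.23, -0.80, -0.004 and 0.89 on the nocodazole arrays and 1.73, 0.999 and 2.85 on untreated replicates 2 to 4 (1.78 ± 0.51 (SE) untreated, adjusted p = 0.758 in limma). The conditions overlapped by untreated replicate 3, and of its 2 probes one had values on nocodazole replicate 1 and untreated replicate 3 only, at 2.64 and 2.26, where the other stood at -0.17 and -0.26. Mrpl51, a protein found in mitochondria only, stood at -1.05, 0.52, -0.52 and 1.40 on the nocodazole arrays and -0.041, 0.38 and 2.62 on untreated replicates 1, 2 and 4 (1.33 ± 0.33 (SE) untreated, adjusted p = 0.704 in limma). The 2 values above 1 came from the 2 arrays with HM-1 in Cy3 that measured it. With all Cy3 arrays turned the untreated ratios were -0.33 for Mrpl34 and -1.07 for Mrpl51.

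Over both conditions, the ratios were small as well. The median of the mean of both ratios was -0.047 over the members and -0.008 over all features, with 21 members positive and 35 negative. No member passed an adjusted p of 0.05 in limma (0% of all features did; smallest adjusted p = 0.189 over all features and 0.897 over the members). At an unadjusted p under 0.05, 3 members were positive, Mrpl34, Mrpl49 and Mrpl51, and 2 negative, Mrpl16 and Mrpl33, against 3.04% and 2.49% of all features. Of the 54 members with values on at least 7 arrays, 0 were positive on every array and 0 negative on every array in the deposited reading, close to the 0.636% and 0.273% of 13529 features. With the Cy3 arrays turned, 4 were positive on every array, Mrpl28, Mrpl52, Mrps21 and Mrps26, and 1 was negative on every array, Mrpl44, against 2.08% and 1.47% of features. In the turned reading the median was 0.073, and 7 members were positive at an unadjusted p under 0.05 and 4 negative, against 4.05% and 6.56% of all features. The 7 were Mrpl2, Mrpl28, Mrpl33, Mrpl52, Mrpl55, Mrps16 and Mrps21, and the 4 were Mrpl9, Mrpl44, Mrpl51 and Mrps36. Without nocodazole replicate 4, 1 member in place of 5 had an unadjusted p under 0.05 in the deposited reading, and without nocodazole replicate 3 the median was -0.025. The remaining gene of positive sign in the deposited reading, Mrpl49, was at -0.27 when turned.

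Between the conditions, Mrpl10 and Mrpl21 were the members whose arrays separated. The fitted change of the line ratio, nocodazole minus untreated, had a median of 0.032 over the members and -0.002 over all features, with 32 members positive and 24 negative. No member passed an adjusted p of 0.05 in limma (0% of all features did; smallest adjusted p = 0.137 over all features and 0.996 over the members). At an unadjusted p under 0.05, 2 members were positive and 0 negative, against 1.65% and 1.63% of all features. In the same 2 members every nocodazole array lay above every untreated array, which was so for 1.23% of all features, and in 0 members every nocodazole array lay below, against 1.46%. When nocodazole replicates 1 and 3 were left out, 4 members separated in each direction, beside 5.57% and 5.4% of features. Without nocodazole replicate 1 the median change was -0.010, and members at an unadjusted p under 0.05 numbered 0 without untreated replicate 2 and 5 without untreated replicate 1. With the Cy3 arrays turned the median change was 0.007 and 3 members had an unadjusted p under 0.05.

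Mrpl10, of the stalk, stood at 0.17, -0.003, 0.027 and -0.089 on the nocodazole arrays and -0.23, -0.50, -0.30 and -0.30 on the untreated arrays. It averaged 0.025 ± 0.11 (SD, n = 4) with nocodazole and -0.33 ± 0.12 (SD, n = 4) untreated, and its fitted change was 0.35 ± 0.14 (SE) (adjusted p = 0.996 in limma). The nocodazole values lay on both sides of 0 and all 4 untreated values were negative. One of its 2 probes separated the conditions on the 7 arrays that measured it, and in the other probe the conditions overlapped. With 1 probe per gene the change was 0.16, and with the Cy3 arrays turned it was 0.20.

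Mrpl21, with a bacterial counterpart in the large subunit, stood at 0.13, 0.025, 0.63 and -0.026 on the nocodazole arrays and -0.68, -0.36, -0.54 and -0.15 on the untreated arrays. It averaged 0.19 ± 0.30 (SD, n = 4) with nocodazole and -0.43 ± 0.23 (SD, n = 4) untreated, and its fitted change was 0.62 ± 0.22 (SE) (adjusted p = 0.996 in limma). The highest value came from nocodazole replicate 3, the array of widest spread, and without it the change was 0.49. Its probes again differed: one had 1.11 on nocodazole replicate 3 and -1.46 on untreated replicate 1, where the other had 0.16 and 0.091. With 1 probe per gene the change was 0.17, and with the Cy3 arrays turned it was 0.39.

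Of the members next in order, Mrpl33 had a fitted change of 0.26 ± 0.12 (SE) and Mrpl16 one of 0.35 ± 0.18 (SE), neither at an unadjusted p under 0.05. Mrps23, a small-subunit protein found in mitochondria only, stood at 0.24, -0.079, 0.12 and 0.48 on the nocodazole arrays and 0.026, -0.11, -0.31 and -0.19 on the untreated arrays (adjusted p = 0.996 in limma). Its conditions overlapped by nocodazole replicate 2. Mrpl34 had a fitted change of -1.33 ± 0.69 (SE) (adjusted p = 0.996 in limma), opposite in sign to that of Mrpl10 and Mrpl21.

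**Figure D3:**
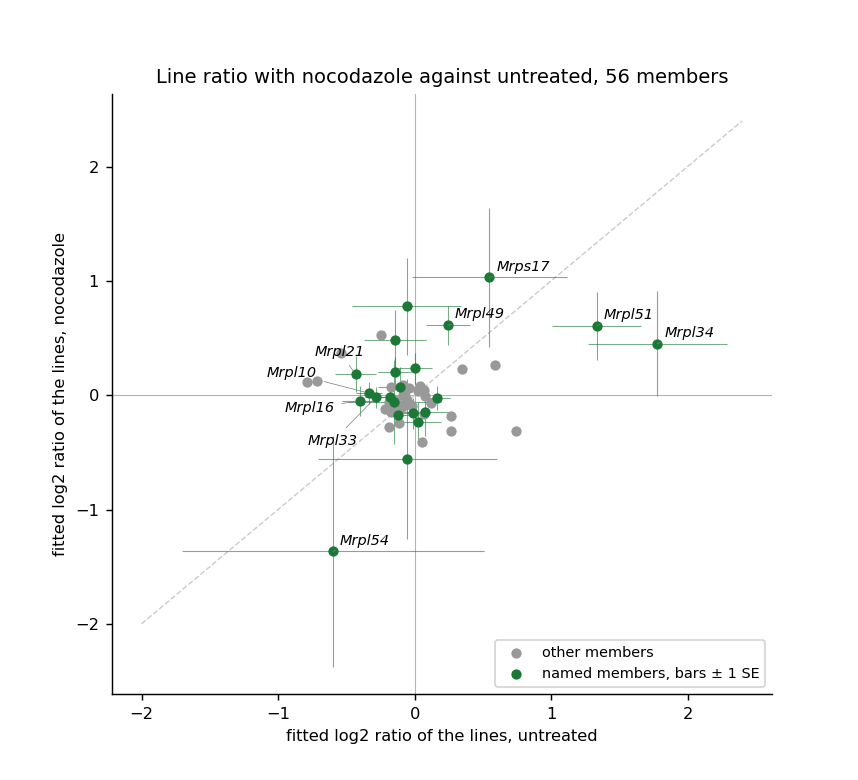
Fitted log2 ratio between the lines with nocodazole (vertical axis) against untreated (horizontal axis) for the 56 tested members; green points are the named members with bars of ± 1 SE, and the dashed line marks equal ratios. Most points lie near 0 on both axes; Mrpl34 and Mrpl51 stand apart to the right, at 1.78 and 1.33 untreated, and Mrpl10 and Mrpl21 lie left of the dashed line.

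The dye label of HM-1 separated more members than the condition did. The fitted difference, HM-1 in Cy5 minus HM-1 in Cy3, is the component that would carry the line ratio if the Cy3 arrays had to be turned. HM-1 was in Cy3 on replicates numbered 3 and 4 only, so dye and replicate number cannot be fully told apart. The fitted dye difference had a median of 0.114 over the members and -0.016 over all features, with 34 members positive and 22 negative. No member passed an adjusted p of 0.05 in limma (0% of all features did; smallest adjusted p = 0.0634 over all features and 0.433 over the members). At an unadjusted p under 0.05, 5 members were positive (Mrpl28, Mrpl33, Mrpl52, Mrps16 and Mrps21) and 4 negative (Mrpl44, Mrpl49, Mrpl51 and Mrps22), against 3.5% and 5.82% of all features. In Mrpl49 the probe with values on the 3 Cy3 arrays only stood at 1.86, 2.02 and 0.66. The other probe stood at -0.052, 0.46, 0.35, -0.007 and 0.011 with HM-1 in Cy5, and at 0.27, -0.24 and -0.48 with HM-1 in Cy3. The negative difference of Mrpl49 thus rests on the average of these probes. In 15 members (26.8%) every array with HM-1 in Cy5 lay above every array with HM-1 in Cy3, against 6.96% of all features, and in 3 members (5.36%) every one lay below, against 5.52%. The 15 were Mrpl2, Mrpl3, Mrpl12, Mrpl20, Mrpl28, Mrpl33, Mrpl35, Mrpl52, Mrpl53, Mrps12, Mrps16, Mrps21, Mrps26, Mrps27 and Mrps34, and the 3 were Mrpl44, Mrpl51 and Mrps36.

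The signs themselves turned with the dye in fewer members. Of 54 members with values on at least 7 arrays, 4 were positive on every array with HM-1 in Cy5 and negative on every array with HM-1 in Cy3, against 2.08% of features: Mrpl28, Mrpl52, Mrps21 and Mrps26. In 1 member, Mrpl44, the signs ran the other way, against 1.47% of features. The members described next were chosen after their values were seen.

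Mrps21 stood at 0.31, 0.085, 0.12, 0.088 and 0.12 on the 5 arrays with HM-1 in Cy5 and at -0.23, -0.38 and -0.41 on the 3 with HM-1 in Cy3. The dye groups did not overlap and lay on either side of 0 (difference 0.46 ± 0.13 (SE), adjusted p = 0.451 in limma). Mrpl52, a large-subunit protein found in mitochondria only, stood at 0.037, 0.13, 0.20, 0.32 and 0.15 with HM-1 in Cy5 and at -0.21, -0.34 and -0.26 with HM-1 in Cy3 (difference 0.45 ± 0.13 (SE), adjusted p = 0.463 in limma). Its dye groups also lay on either side of 0. Mrpl12, of the stalk, stood at 0.14, -0.10, 0.22, 0.086 and -0.024 with HM-1 in Cy5 and at -0.29, -0.23 and -0.20 with HM-1 in Cy3 (difference 0.30 ± 0.14 (SE), adjusted p = 0.554 in limma). Its dye groups separated although 2 of its Cy5 values were negative. Mrps12, whose bacterial counterpart lies at the decoding site, stood at 0.092, -0.042, -0.014, 0.088 and 0.24 with HM-1 in Cy5 and at -0.14, -0.23 and -0.18 with HM-1 in Cy3, with no overlap either.

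The largest differences in both directions belonged to members of wide spread. Mrpl28, with a bacterial counterpart, stood at 2.08, 0.59, 0.92, 0.16 and 0.35 with HM-1 in Cy5 and at -0.27, -0.11 and -1.39 with HM-1 in Cy3 (difference 1.21 ± 0.45 (SE), adjusted p = 0.511 in limma). It was the highest member by this difference, and 2 of its values were more than 1 from 0. Mrpl44, which carries a fold related to RNase III, stood at -1.17, -1.19, -0.64, -2.15 and -3.27 with HM-1 in Cy5 and at 0.56, 0.46 and 2.11 with HM-1 in Cy3 (difference -2.95 ± 0.65 (SE), adjusted p = 0.433 in limma). It was the lowest member, with all Cy5 values below all Cy3 values.

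**Figure D4:**
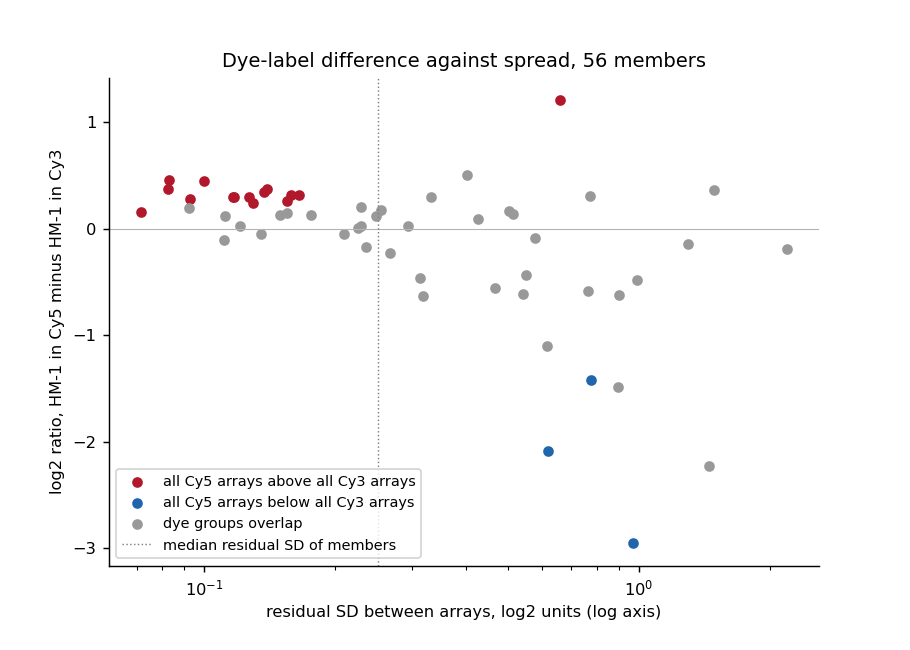
Difference between the dye labels (HM-1 in Cy5 minus HM-1 in Cy3, log2) against the residual SD between arrays (log axis) for the 56 tested members, coloured by whether the dye groups overlap. Of the 15 members with all Cy5 arrays above all Cy3 arrays, 14 have a residual SD below the median of the members, 0.252 (dotted line).

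The direction of this difference went with the spread of the members. Of the 28 members of smaller residual SD, 24 had a positive difference (median 0.198) and 14 separated with Cy5 above, 50.0%. Among all features with a residual SD at or below the members' median, 779 of 4474 did, 17.4%, and their median difference was 0.114. Of the 28 members of larger residual SD, 10 had a positive difference (median -0.333) and 1 separated with Cy5 above. The residual SD and the difference come from the same fit, and separation is easier at a small residual SD, so this is a description. Of the 36 ribosomal members with a bacterial counterpart 26 were positive (median 0.131), and of the 19 without one 8 were positive (median -0.050), a contrast that was not tested. The shares that separated with Cy5 above were alike, 10 of 36 (27.8%) with a counterpart and 5 of 19 (26.3%) without. Of the promoter letters described above, ETS letters stood in 11 of the 14 separated members with a promoter and in 17 of the other 36 tested members, and CCAAT in 9 and 10. NRF1 letters stood in 3 and 6, YY1 letters in 3 and 5 and TATAAA in 0 and 5. The contrast was thus as wide for CCAAT, which is common to promoters of many kinds of gene, as for the ETS letters, and none of the 5 was tested.

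The count of separated members was also taken with another label for 1 array. The design text speaks of 50% dye swaps, whereas the labels swap 3 of 8 arrays. With nocodazole replicate 3 given the opposite dye, 5 members separated with Cy5 above in place of 15, against 3.59% of features, and 2 of these belonged to the 15. A separated member stays so after this change only if that array held its lowest Cy5 value or no value. A fall was therefore built into this count, and it cannot tell which label is right. Without nocodazole replicate 3 the count was 18, and without nocodazole replicates 1 and 3 it was 19. Leaving arrays out cannot undo a separation, and all 15 stayed in each such setting. The median difference of the members, 0.114, was 0.048 without nocodazole replicate 1, 0.055 without nocodazole replicate 2 and 0.050 without untreated replicate 3. With the arrays not centred, it was 0.250, beside 0.119 over all features.

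Other genes of mitochondrial and cytosolic translation were set beside the members from lists chosen with earlier results of these data known. Subunits of oxidative phosphorylation, whose core members mitochondrial ribosomes make, had a median dye difference of 0.240, and 21 of 70 (30.0%) separated with Cy5 above. Cytosolic ribosomal proteins had a median of 0.217, and 18 of 56 (32.1%) separated. The shares were close to the 26.8% of the members, and the difference between the lists was not tested. Untreated, oxidative phosphorylation subunits had a median ratio of -0.099 in the deposited reading, with 54 of 70 negative, and cytosolic ribosomal proteins -0.019, with 32 of 56 negative, against 51.1% negative over all features. With the Cy3 arrays turned the untreated medians were 0.137 and 0.144, with 18 of 70 and 14 of 56 negative, against 49.3% over all features. With nocodazole the medians were -0.015 and -0.006 in the deposited reading and 0.125 and 0.082 turned.

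**Figure D5:**
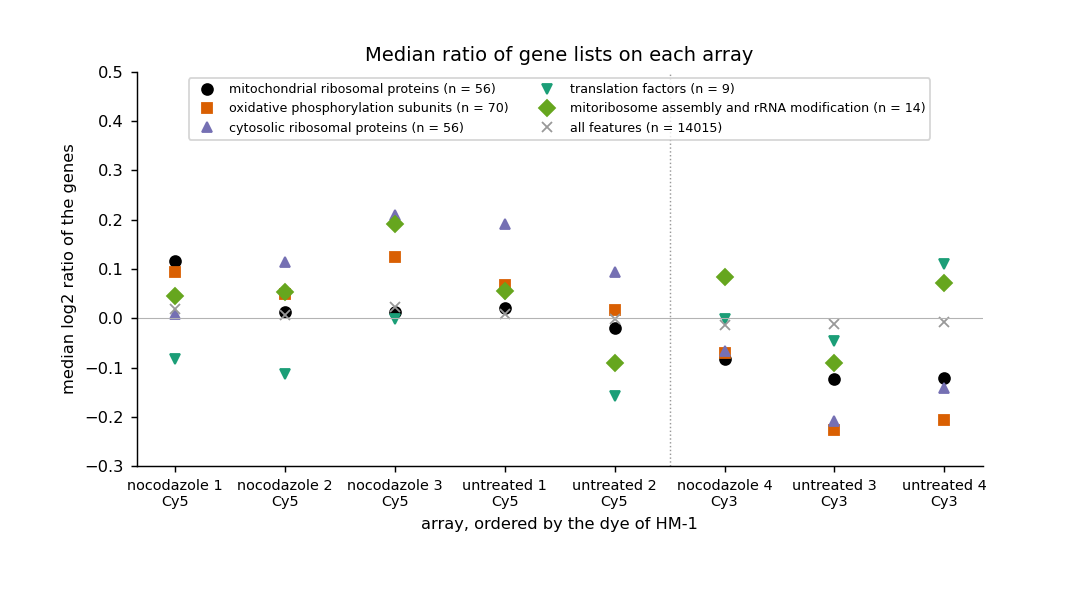
Median log2 ratio of the mitoribosomal genes and of other gene lists on each array, with the 5 arrays labelled HM-1 in Cy5 on the left and the 3 labelled HM-1 in Cy3 on the right of the dotted line. The black points of the mitoribosomal genes lie between -0.123 and -0.082 on the Cy3 arrays, where oxidative phosphorylation subunits and cytosolic ribosomal proteins are also below 0.

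Single genes of these lists passed an unadjusted p of 0.01 in the dye difference. Ndufb9, a subunit of complex I, stood at 0.33, 0.20, 0.21, 0.41 and 0.24 with HM-1 in Cy5 and at -0.18, -0.43 and -0.56 with HM-1 in Cy3 (0.65 ± 0.15 (SE), adjusted p = 0.433 in limma). The dye groups did not overlap. Ndufa5 of complex I (0.498), Cox5b of complex IV (0.51), Atp5md of the ATP synthase (0.47) and the cytosolic ribosomal proteins Rps21 (0.66) and Rpl36a (0.45) were positive too. Rpl39, also cytosolic, was at -0.487, -0.023, -0.38 and 0.20 on the nocodazole arrays and at -4.26, -4.18 and 0.10 on untreated replicates 1 to 3 (untreated ratio -2.40 ± 0.59 (SE), adjusted p = 0.704 in limma). Its 2 lowest values came from the untreated arrays with HM-1 in Cy5.

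The lists of genes that load, build and feed the mitochondrial ribosome were short, and few of their genes separated, beside 6.96% of all features with Cy5 above. Of 9 mitochondrial translation factors, 2 had a positive dye difference (median -0.061), and 0 separated with Cy5 above. Of 14 genes of mitoribosome assembly and ribosomal RNA modification, 5 were positive (median -0.067) and 0 separated. Of 9 mitochondrial tRNA synthetases 3 were positive (median -0.288) and 0 separated with Cy5 above, and of 7 genes of mitochondrial DNA maintenance and transcription 5 were positive (median 0.121) and 2 separated (28.6%). With 7 to 14 genes in a list, a count of 0 is close to that background. The 2 tested mitoribosomal proteins with other symbols were both positive in the dye difference and overlapped. With nocodazole the medians of these 5 lists were -0.010, 0.092, 0.189, -0.053 and 0.130, and untreated they were -0.082, -0.028, 0.026, 0.131 and -0.153; turned, they were 0.039, -0.009, -0.271, 0.112 and 0.130 with nocodazole and -0.040, -0.058, -0.318, 0.133 and 0.117 untreated. None of their genes passed an adjusted p of 0.05 in limma in any of the 5 comparisons.

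Probes of 1 gene give a further view of the precision. Of the tested members, 42 had 1 probe and 14 had more. The probes of Mrps18b, which encodes one of several relatives of a bacterial small-subunit protein, differed by a median of 0.0485 and shared their sign on 7 of 8 arrays. Mrps18b ranged over -0.12 to 0.18 with nocodazole and -0.34 to -0.10 untreated. The probes of Mrps23 differed by 0.11 (same sign on 6 of 7 arrays) and those of Mrpl10 by 0.199 (6 of 7), the closest after Mrps18b in sign. In Mrps6 and Mrps10, small-subunit genes with bacterial counterparts, the medians were 0.117 and 0.167, with 5 and 3 of 8 signs shared. Mrps6 ranged over -0.89 to 0.20 with nocodazole and -0.12 to 0.29 untreated, and Mrps10 over -0.56 to -0.015 and -0.10 to 0.15 in the same order. Both reached their lowest value on nocodazole replicate 3, through 1 probe each. There the probes stood at -2.01 and 0.22 for Mrps6 and at -1.17 and 0.051 for Mrps10.

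Other members had probes that differed more than most ratios between the lines. Mrpl37, found in mitochondria only, had probes differing by a median of 0.336, with 2 of 7 signs shared, and ranged over -0.10 to 0.067 with nocodazole and 0.026 to 0.38 untreated. Mrps25, also found in mitochondria only, had a median difference of 0.537, with 2 of 8 signs shared, and ranged over -0.19 to 0.17 with nocodazole and -0.73 to 0.45 untreated. Its averaged untreated values were negative with HM-1 in Cy5 and positive with HM-1 in Cy3, a pattern that 1 of its probes showed. On untreated replicates 1 to 4 that probe stood at -1.44, -0.83, 0.91 and 0.43, and the other at -0.018, 0.24, -0.008 and -0.15. Mrpl17, measured by 3 probes, had a median difference of 0.457, with 10 of 22 signs shared. It ranged over -0.31 to -0.038 with nocodazole and -0.30 to 0.73 untreated, where replicate 2 stood alone above 0. On that array its probes stood at 2.22, 0.055 and -0.089.

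In 5 members the median difference between probes was above 1 on the log2 scale. It was 1.18 for Mrpl4, whose bacterial counterpart lines the exit tunnel, 1.26 for Mrpl48, 1.59 for Mrpl49, 1.65 for Mrps17 and 2.66 for Mrpl34. Mrpl4 ranged over -0.83 to 0.27 with nocodazole and -1.07 to 0.98 untreated, and Mrpl48 over -3.04 to 1.43 with nocodazole and -0.53 to 0.65 untreated. Mrps17, a small-subunit gene with a bacterial counterpart, ranged over -0.64 to 2.94 with nocodazole and -0.024 to 1.26 untreated. Its fitted ratio was 1.03 ± 0.61 (SE) with nocodazole and 0.55 ± 0.57 (SE) untreated in the deposited reading, with an SE above 0.5 in both, and -0.102 and 0.077 with the Cy3 arrays turned. The ranges of these 5 genes crossed between the conditions.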

How the data were processed

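Total RNA of both lines was labelled indirectly with Cy3 or Cy5 and hybridised to cDNA arrays, per the labels' protocols. The same protocols speak of organs and of a pool of control animals, which appear in no channel label. The authors deposited 1 log2 ratio per probe and array. How they normalized it, and with which software, is not given in the sources used here. No intensities were used, so the depth behind a ratio is unknown, and the number of arrays limits the precision.

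Symbols came from the platform annotation (1 symbol for 14030 of 20355 probes, several for 5, none for 6320), and all 64 members matched RefSeq. Deposited log2 values beyond 10 in size are codes for an undefined ratio (74 to 203 per array) and were set to missing. Probes of 1 symbol were averaged and each array was centred on its median. Of 16255 features, the 14015 with values on at least 3 arrays of each condition were fitted with limma 3.58.1 (lmFit, eBayes; R 4.3.3, statmod 1.5.0). The model had 1 coefficient per condition and a dye term, and p-values were two-sided and adjusted by Benjamini-Hochberg at 0.05. The fit was tested on simulated independent values with known changes added to the nocodazole arrays. The simulation held no dye effect and no turned arrays, so it does not bear on the dye term or the sign.

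Members, lists and tests were chosen with earlier results of these data known. Named members were, in the line ratios or their change, the 6 of smallest unadjusted p, those with 1 sign on all arrays, those whose conditions did not overlap, the highest and lowest mean, and those with several probes. Named genes of other lists had an unadjusted p under 0.01. The alternatives were no dye term, turned Cy3 arrays, coded values kept, no centring, scaling, a replicate block, array weights, 1 probe per symbol, other minimum numbers of arrays, another dye for nocodazole replicate 3, and each array left out. The promoter motifs searched are letters known from general knowledge of these factors, not taken from the deposited files.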

Additional observations from a re-analysis of the deposited data

Results flagged for a closer look

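In 7 of the 42 groups of 4 arrays examined, 1 array lay far from the other 3 by Dixon's test at the 95% level. For independent, normally distributed values the test gives this in about 1 of 20 groups. The groups here share the same arrays, and no share over all features is given beside them, so an excess in these genes is not shown. The groups examined did not cover every tested member, so flags of named and other members cannot be compared. All 7 flagged groups were of named members. With nocodazole these were Mrpl16 on replicate 1 at 0.260 (others -0.103 to -0.053), Mrps10 on replicate 3 at -0.558 (others -0.029 to -0.015) and Mrps6 on replicate 3 at -0.893 (others 0.042 to 0.199). Untreated they were Mrpl16 on replicate 1 at 0.020 (others -0.575 to -0.489), Mrpl17 on replicate 2 at 0.727 (others -0.299 to -0.136), Mrpl49 on replicate 3 at 0.889 (others -0.007 to 0.090) and Mrps22 on replicate 2 at -1.701 (others 0.461 to 0.532). Nocodazole replicate 3 and untreated replicate 2 account for 2 each. The flagged values of Mrps6, Mrps10, Mrpl17 and Mrpl49 are averages of probes that disagreed on that array. The probes stood at -2.008 and 0.221 for Mrps6 and -1.168 and 0.051 for Mrps10. For Mrpl17 they stood at 2.216, 0.055 and -0.089, and for Mrpl49 at 2.017 and -0.238.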

How the results depend on the processing

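No member passed an adjusted p of 0.05 in any comparison under any alternative. With the arrays labelled HM-1 in Cy3 turned, the median over the members was 0.074 for the untreated ratio, 0.073 over both conditions and -0.099 for the dye difference. That reading also reversed the untreated and combined ratios of Mrpl16 (0.125 and 0.149), Mrpl33 (0.180 and 0.222), Mrpl34 (-0.328 and -0.504) and Mrpl51 (-1.073 and -1.078), and the nocodazole and combined ratios of Mrpl49 (-0.289 and -0.266). With coded values kept, the combined ratio of Mrpl34 was -0.150. The median dye difference of the members, 0.114, was 0.250 without centring (0.119 over all features) and 0.038 with a replicate block, and leaving out 1 array at a time gave 0.048 to 0.151. The deviations from the condition means of arrays with 1 replicate number correlated at 0.13, 0.021, -0.051 and 0.094 over 11681 features. The dye was not removed from these deviations, and HM-1 had the same dye in both conditions for numbers 1, 2 and 4. Arrays of different numbers were not set beside them, so these values cannot show whether the numbers pair the arrays. With the replicate block the median change was 0.098 and 8 members had an unadjusted p under 0.05 untreated, in place of 6. Over all features, 1 passed in the dye difference with array weights, 1 with 1 probe per symbol, and 1 in the nocodazole ratio with values on all 8 arrays, none of them a member. Members with all Cy5 arrays above all Cy3 arrays numbered 5 with the opposite dye for nocodazole replicate 3, and 4 members had all nocodazole arrays above all untreated arrays without nocodazole replicates 1 and 3. Members at an unadjusted p under 0.05 ranged over the alternatives from 0 to 4 with nocodazole, 1 to 8 untreated, 1 to 11 over both, 0 to 5 for the change and 2 to 14 for the dye difference, against 1, 6, 5, 2 and 9. Over all features these counts ranged from 301 to 746, 740 to 1484, 568 to 1486, 342 to 676 and 726 to 2009, against 405, 888, 775, 460 and 1306. For the named members, 1889 values under an alternative stayed within the spread between arrays, 148 moved beyond it and 11 reversed; apart from the turned arrays and the coded values, the cause of such moves was not tested. Whole-number ratios made up 12.2% of the values of tested members and 35.9% of those of the 8 not tested, against 14.6% over all probes; no intensities were used here, and the number of arrays limits the precision.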
